A study of Homo sapiens with 20 samples.

Results

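Expression of 46 genes that break down fatty acids and the branched-chain amino acids leucine, isoleucine and valine was followed in SKBr3 cells, an established human breast cancer line with amplified ERBB2. The 46 genes were chosen by the step they carry out, not by a measured value, though with earlier results of these data known. Of them, 42 were among the 9592 genes that could be measured. ACSL3 had no probe in the platform annotation used here, and ACSL4, ACADS and ACADSB had probes that were not detected on both arrays of any group. The remaining 42 were each read with the brightest of their detected probes, and 40 of them were detected on all 20 arrays.

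The 20 Illumina BeadChip arrays covered 10 groups of 2 replicates. Every cell had been transfected for 60 h with a control siRNA (siC) or with one that targets ESRRA, the gene of the orphan receptor ERRα (siERRα), each a commercial pool. In the growth factor experiment the cells were deprived of serum and then given vehicle (starved), EGF or heregulin (HRG) at a stated dose of 100 µM, for 24 h by the labels but 3 h by the published methods, so the length of exposure is not settled. In the other experiment, parental SKBr3 cells without lapatinib were set against lapatinib-resistant cells (LRSKBr3) that were kept in the drug. The resistant cells came from long exposure of the same line to rising doses of lapatinib, which blocks the kinases EGFR and ERBB2. Presence of the drug and acquired resistance therefore cannot be told apart in this comparison. For starvation both 24 h and 48 h stand in the labels, and for lapatinib both 2 µM and 1 µM. Nothing in them tells whether the 2 replicates of a group were separate cultures, so the p-values cover only the scatter among these arrays, possibly a technical one, and LRSKBr3 stands for a single resistant line.

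Fatty acids are activated to acyl-CoA by the ACSL enzymes, carried into mitochondria by the carnitine shuttle, and shortened by a cycle of dehydrogenation, hydration, dehydrogenation and thiolysis that feeds electrons to the respiratory chain through the electron transfer flavoproteins. Leucine, isoleucine and valine first lose their amino group to BCAT, are then decarboxylated by the branched-chain keto acid dehydrogenase complex, and end as acetyl-CoA, acetoacetate or, through propionyl-CoA, succinyl-CoA. ERRα, encoded by ESRRA, is known as an activator of mitochondrial genes, among them the medium-chain acyl-CoA dehydrogenase gene ACADM.

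One array, EGF siERRα replicate 1, stood apart. Its correlation with the other 19 arrays was 0.831 to 0.876, against 0.933 to 0.99 among those 19, and 12151 probes were detected on it, against 12582 to 15177. On that array 24 of the 42 measured members lay outside the range of the other 19, 20 of them below it and 4 above. AUH, an enzyme of leucine breakdown, had a normalized log2 intensity of 5.06 there against 8.08 to 8.87 elsewhere, and ACADVL had 13.02 against 12.08 to 12.34. Each comparison is therefore given with 20 arrays and again after removal of this one (19 arrays), when EGF siERRα rests on 1 array. Of 9 luminal epithelial markers 7 were detected on all 20 arrays, as were 1 of 5 leukocyte markers with a probe, 0 of 4 endothelial, 1 of 6 mesenchymal, 0 of 4 adipocyte and 0 of 3 hepatocyte markers. Detected on no array were 1 luminal, 2 leukocyte, 1 endothelial, 4 mesenchymal, 1 adipocyte and 2 hepatocyte markers. The remaining markers of every list were detected on some arrays only, so detection did not separate the lists cleanly. ESRRA was lower after siERRα by 1.47 on the log2 scale on average over the 5 settings (SE 0.14, adjusted p 0.000527, limma), and its siERRα arrays lay below its siC arrays in every setting.

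With EGF, 39 of the 42 measured members had a negative log2 fold change against starved cells in siC, and the same number did so with HRG. The median change of the members was -0.25 with EGF and -0.23 with HRG, where the medians over all 9592 genes were -0.06 and -0.05, and 57% and 55.8% of all genes had a negative value. Both replicates lay below both starved replicates for 28 of 42 members with EGF (66.7%, against 31.6% of all genes) and for 25 with HRG (59.5%, against 29.2%). Few single members passed the test, and the 2 comparisons share their starved arrays. HRG could also be set against starved cells within siERRα, on arrays that the siC comparison did not use. There 37 of 42 members were negative, the median was -0.21 against -0.04 over all genes, and 25 members (59.5%, against 29.1% of all genes) were lower on both arrays. The sign of the HRG change was the same in siC and siERRα for 38 of 42 members (90.5%, against 72.3% of all genes). With most members negative in both, much of that agreement follows from the shift itself. Across members the values correlated with a Pearson r of 0.601 and a Spearman rho of 0.552, below the 0.696 and 0.59 over all genes. Genes are not independent replicates.

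At an adjusted p under 0.05, 3 of the 42 members (7.14%) were called with EGF in siC, where 5.25% of all genes were called, and with 19 arrays 5 members (11.9%) against 11.7%. With HRG 1 member was called (2.38%, against 2.91% of all genes), and with 19 arrays 4 members (9.52%, against 7.64%). With HRG in siERRα 1 member was called (2.38%, against 2.65%), and with 19 arrays 4 (9.52%, against 8.07%). These shares are near those of all genes, so that the count of calls is not a result about the members, and the shift of the list as a whole is a description of its median and signs.

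**Figure D1:**
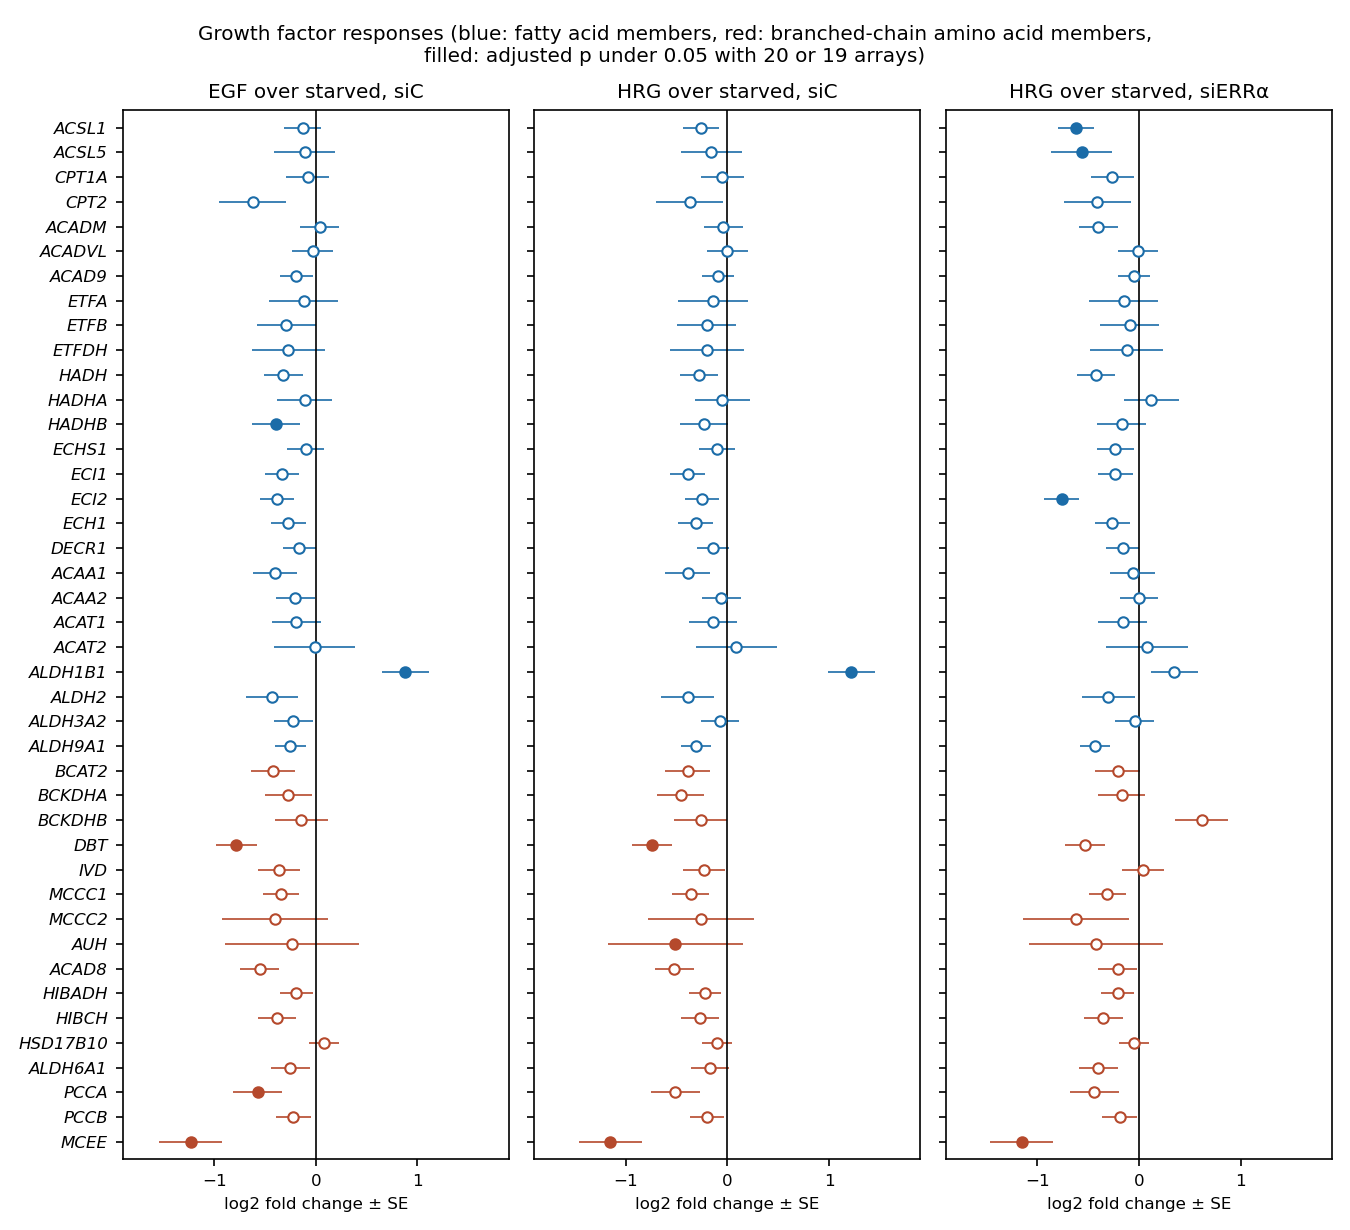
Log2 fold change with its SE (horizontal axis, fit of 20 arrays) for each of the 42 measured members (rows, in pathway order) with EGF in siC, HRG in siC and HRG in siERRα, each over starved cells. Most points lie left of 0, with MCEE the lowest in every panel and ALDH1B1 to the right in every panel.

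MCEE, which encodes methylmalonyl-CoA epimerase of the propionyl-CoA branch, had the widest range of all members, 2.13 between the highest and lowest of the 9 group means left without EGF siERRα. Its log2 intensity was 9.97 and 10 in starved siC cells, 8.41 and 9.09 with EGF, and 8.51 and 9.16 with HRG. The starved arrays nearly coincided and all 4 growth factor arrays lay well below them. MCEE fell 2.35-fold with EGF (log2 fold change -1.23, SE 0.31, adjusted p 0.0355). With HRG the change was -1.15 (SE 0.31), with an adjusted p of 0.0672 that became 0.0123 with 19 arrays. In siERRα cells it was 9.99 and 9.98 when starved and 8.6 and 9.07 with HRG, again without overlap, a change of -1.15 (adjusted p 0.0709, and 0.012 with 19 arrays). The other members of the branch, PCCA and PCCB, encode the subunits of propionyl-CoA carboxylase, the step before the epimerase. PCCA read 9.45 and 9.51 in starved siC cells, 8.7 and 9.12 with EGF and 8.9 and 9.05 with HRG. All 4 growth factor values were below both starved values, and the change with EGF, -0.57 (SE 0.24), had an adjusted p of 0.221 that became 0.0324 with 19 arrays. PCCB was -0.22 with EGF and -0.20 with HRG, and was not called.

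The 250 bases before the MCEE start are shown for the core element AAGGTCA, to which ERRα is known to bind. Of the 38 members with a promoter in the RefSeq table of GRCh38.p14, MCEE alone held it. That is 1 of 52 member windows (1.92%), no more than the 3.44% of all 35116 windows of this length, on either strand. After siERRα, MCEE was at -0.03 on average over the 5 settings, and at 0.06 with 19 arrays. The element stands in capitals as its reverse complement, 90 bases before the start, on the minus strand of chr2:71130230-71130479. The windows before ALDH1B1 (plus strand, chr9:38392452-38392701) and DBT (minus strand, chr1:100249835-100250084) are set beside it. They are those of the other members called with EGF, higher and lower, with GC boxes (GGGCGG, either strand) in capitals. The MCEE window held GC boxes too, which are left in lower case.
MCEE: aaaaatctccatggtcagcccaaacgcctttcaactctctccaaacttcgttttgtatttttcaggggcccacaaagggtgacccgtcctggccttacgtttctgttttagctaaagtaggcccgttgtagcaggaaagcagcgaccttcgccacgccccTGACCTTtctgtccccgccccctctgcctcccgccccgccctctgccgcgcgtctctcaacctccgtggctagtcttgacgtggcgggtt
DBT: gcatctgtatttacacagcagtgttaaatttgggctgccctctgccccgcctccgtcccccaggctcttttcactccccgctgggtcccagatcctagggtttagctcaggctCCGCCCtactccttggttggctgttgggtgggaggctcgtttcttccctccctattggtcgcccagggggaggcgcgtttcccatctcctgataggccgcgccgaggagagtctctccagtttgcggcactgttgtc
ALDH1B1: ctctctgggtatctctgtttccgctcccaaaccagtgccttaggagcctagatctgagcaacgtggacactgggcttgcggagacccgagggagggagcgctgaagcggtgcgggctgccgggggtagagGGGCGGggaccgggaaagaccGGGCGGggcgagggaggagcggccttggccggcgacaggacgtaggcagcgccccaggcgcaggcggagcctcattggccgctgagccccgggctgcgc
The longer ERRα element TCAAGGTCA was in 0 of the 52 member windows (0.319% of all windows). The AP-1 sequence TGANTCA was in 2 (3.85%, against 6.57%), before ACSL1 and ACADVL, and the cAMP response element TGACGTCA in 1, before ACAD9 (1.92%, against 1.65%). GC boxes were in 35 of 52 (67.3%, against 42.6%). A match is only a run of letters in these windows, and no match says nothing of sites elsewhere.

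DBT encodes the transacylase core of the branched-chain keto acid dehydrogenase complex. Its arrays read 9.99 and 10.2 in starved siC cells, 9.27 and 9.36 with EGF, and 9.17 and 9.53 with HRG. Starved and treated arrays did not overlap. DBT fell 1.72-fold with EGF (-0.78, SE 0.20, adjusted p 0.0382), and with HRG it was -0.74 (SE 0.20), with an adjusted p of 0.0675 that became 0.0317 with 19 arrays. In siERRα cells the HRG change was -0.53 (adjusted p 0.207). Another probe of DBT gave -0.20 with EGF, -0.48 with HRG and -1.20 with HRG in siERRα cells, the same sign at other sizes, and the mean of both probes gave -0.49 with EGF, which was not called (adjusted p 0.189). Around it, the mitochondrial aminotransferase BCAT2 was at -0.42 with EGF and -0.39 with HRG, and the E1 subunit BCKDHA at -0.27 and -0.46. Neither passed the test. The other E1 subunit, BCKDHB, gave no steady value. It was at -0.26 with HRG in siC and 0.62 in siERRα by the probe used, while its other probes gave -0.44 and -0.48 in siERRα.

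In the leucine branch, AUH, a methylglutaconyl-CoA hydratase, was at 8.54 and 8.71 in starved siC cells and at 8.15 and 8.08 with HRG. The groups did not overlap, and the change of -0.51 had an adjusted p of 0.827 with 20 arrays (SE 0.66) and 0.0464 with 19 (SE 0.14), the array that stood apart being far from the rest for this gene. MCCC1, the biotin subunit of methylcrotonyl-CoA carboxylase, was at -0.34 with EGF and -0.36 with HRG, lower on both arrays each time and not called. The 4 members of this branch were all negative with EGF and with HRG in siC, between -0.40 and -0.23 with EGF. In the valine and isoleucine branch 4 of 5 were negative with EGF and 5 of 5 with HRG. The lowest, ACAD8, the isobutyryl-CoA dehydrogenase, read 8.38 and 8.29 in starved siC cells, 7.72 and 7.84 with EGF and 7.78 and 7.85 with HRG, without overlap (-0.55 and -0.52, adjusted p 0.124 and 0.191). Over both amino acid branches and the shared steps, 15 of the 16 measured members were negative with EGF (median -0.35) and 16 of 16 with HRG (median -0.31).

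Among the 26 fatty acid members the medians were -0.19 with EGF and -0.15 with HRG. ALDH1B1, a mitochondrial aldehyde dehydrogenase, went the other way. It read 6.2 and 6.62 in starved siC cells, 7.28 and 7.31 with EGF and 7.77 and 7.48 with HRG, with no overlap. It rose 1.85-fold with EGF (0.88, SE 0.23, adjusted p 0.0417) and 2.32-fold with HRG (1.22, SE 0.23, adjusted p 0.0124). The sizes depended on the background step: without it they were 0.46 and 0.67, and in the authors' normalized values 0.31 and 0.44, with the EGF call lost in both. In siERRα cells it read 6.44 and 6.64 when starved and 6.9 and 6.88 with HRG, a change of 0.35 (adjusted p 0.54). The difference between the HRG responses in siERRα and siC was -0.87, with an adjusted p of 1, so a difference was not shown. The related ALDH2, the main mitochondrial acetaldehyde dehydrogenase, was lower on both arrays with EGF (9.76 and 9.7, against 10.22 and 10.09) and was not called.

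The 10 members grouped after the first dehydrogenation were all negative with EGF and with HRG in siC, at medians of -0.29 and -0.24. Besides enzymes of the cycle they include ECI1, ECI2, ECH1 and DECR1, which act on double bonds, and peroxisomal ACAA1. Lower on both arrays were 9 of them with EGF (31.6% of all genes were) and 8 with HRG (29.2% of all genes). HADHB, the thiolase subunit of the mitochondrial trifunctional protein, was at 9.7 and 9.74 in starved siC cells and at 9.35 and 9.31 with EGF. The change of -0.39 had an adjusted p of 0.467 with 20 arrays and 0.0478 with 19. HADHA, its partner subunit, was at 8.53 and 8.56 when starved and at 8.3 and 8.58 with EGF, with overlap. These genes start head to head, 306 bases apart. The stretch that lies before both starts is shown because their readings correlated negatively (plus strand, chr2:26244689-26244882, 194 bases, GC box in capitals).
HADHA and HADHB: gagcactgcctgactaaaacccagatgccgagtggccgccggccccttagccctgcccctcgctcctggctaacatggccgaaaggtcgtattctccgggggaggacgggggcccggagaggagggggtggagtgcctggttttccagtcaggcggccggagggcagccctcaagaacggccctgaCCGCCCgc
Across the 20 arrays HADHA and HADHB correlated with a Pearson r of -0.751, and across the 19 arrays with an r of -0.326, over arrays of 10 groups that share treatments, as a description only. ECI2, an enoyl-CoA isomerase, was at 10.41 and 10.64 in starved siERRα cells and at 9.71 and 9.83 with HRG. It fell 1.69-fold there (-0.76, SE 0.17, adjusted p 0.0304), and its other probe gave -0.51. In siC its change with HRG was -0.25 and not called.

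At the entry to the pathway the values were smaller or less even. ACSL1, which activates long-chain fatty acids, was at 8.97 and 8.92 in starved siERRα cells and at 8.16 and 8.49 with HRG, a change of -0.62 (adjusted p 0.107, and 0.0191 with 19 arrays). ACSL5 was at -0.56 there (adjusted p 0.429, and 0.0379 with 19 arrays), from 7.67 and 7.82 to 7.18 and 7.2. In siC neither was called. ACSL5 was at -0.11 with EGF and -0.16 with HRG there by the probe used, and at -0.35 and -0.57 by another. CPT1A, the carnitine acyltransferase of the outer membrane, was at -0.08 with EGF and -0.05 with HRG, and CPT2 of the inner membrane at -0.62 and -0.37. A further probe of CPT1A gave 0.19 and 0.37, so the sign for that gene is not settled. CPT2 read 9.13 and 9.17 in starved siC cells and 8.38 and 8.68 with EGF, lower on both arrays, with an SE of 0.33 and an adjusted p of 0.368. The 3 first dehydrogenases lay between -0.19 and 0.04 with EGF. ACADM was at 0.04 with EGF and -0.04 with HRG (-0.15 and -0.31 by another probe), and ACADVL, the very-long-chain enzyme, at -0.03 and 0.00. ETFDH, which passes electrons on to ubiquinone, was at -0.27 and -0.20.

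No member was called between HRG and EGF (0% of all genes with 20 arrays and 0.073% with 19), where the median was 0.04 and the values ran from -0.29 to 0.33. The calls with growth factors depended on single arrays. When either starved siC array was omitted, or EGF siC replicate 1, none of MCEE, DBT and ALDH1B1 was called with EGF (MCEE alone without EGF siC replicate 2), ALDH1B1 lost its HRG call when replicate 1 of the starved or of the HRG siC cells was omitted, and ECI2 lost its call when any one of its 4 arrays was left out. CDH5, of the endothelial markers, was higher in siC with EGF by 2.44 and with HRG by 2.46 on the log2 scale (adjusted p 0.00516 and 0.00881). The other endothelial marker measured, VWF, was not well above background in starved, EGF or HRG siC cells. VWF was detected on both starved siERRα arrays, 1 of 2 EGF siERRα arrays, 1 of 2 arrays in each parental group and every resistant array. All samples came from a single cultured line and its resistant derivative, and the source of these marker signals was not tested.

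**Figure D2:**
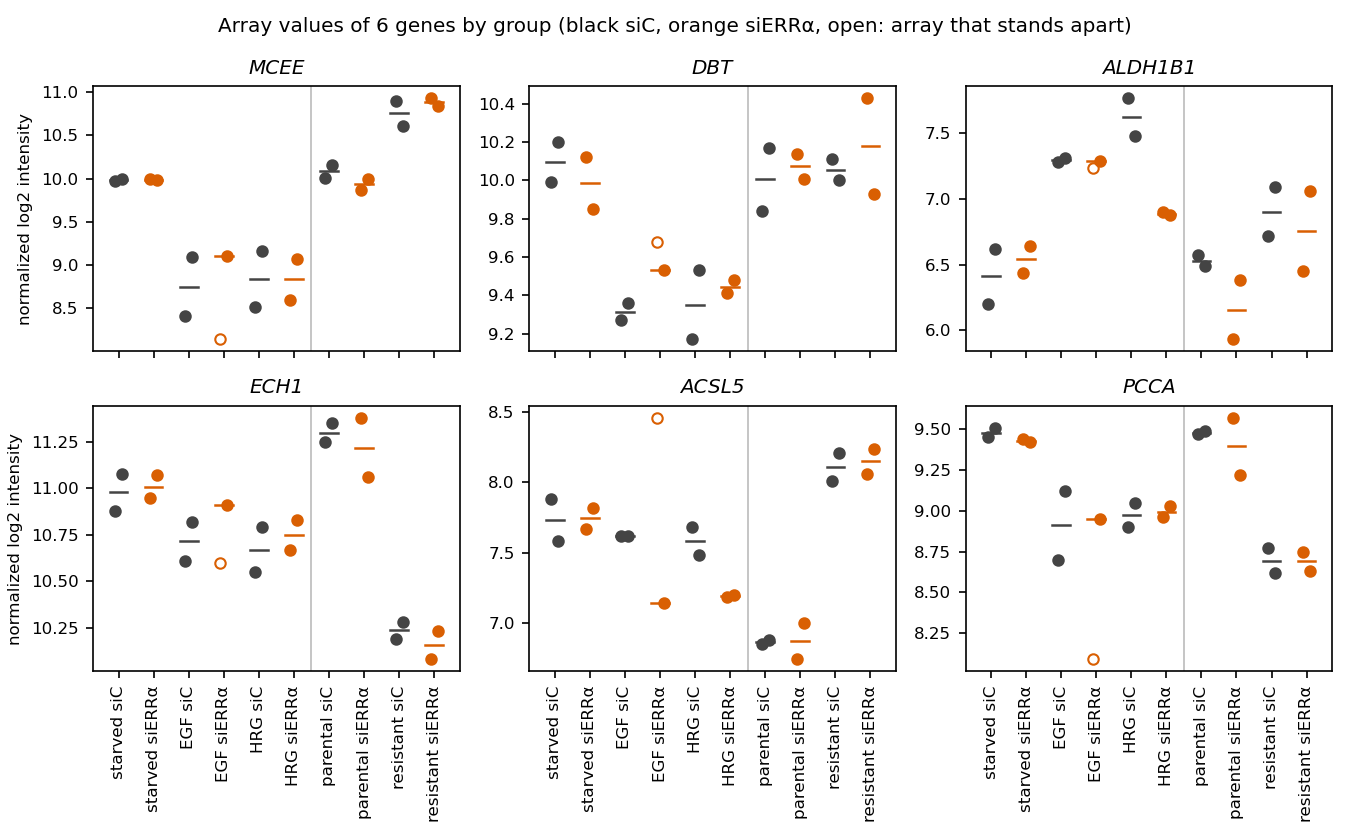
Normalized log2 intensity (vertical axis) on every array for 6 members in the 10 groups, growth factor experiment left of the grey line and resistance experiment right of it, with bars at the group means taken without EGF siERRα replicate 1 (open symbol). MCEE and PCCA are lower with growth factors and split the other way in resistant cells, where MCEE lies above and PCCA below the parental arrays.

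Between resistant and parental cells the members moved in both directions, with 20 of 42 negative in siC and a median of 0.03 against 0.02 over all genes. In siC 2 members were called (4.76%, against 4.5% of all genes), and with 19 arrays 5 (11.9%, against 10.2%). In siERRα 2 were called (4.76%, against 5.03%), and with 19 arrays 7 (16.7%, against 11.2%). Apart from that last count the shares are near those of all genes. The siC and siERRα comparisons use different arrays. Across the 42 members their values correlated with a Pearson r of 0.913 and a Spearman rho of 0.832, against 0.788 and 0.671 over all genes, and 33 members (78.6%, against 74.2%) had the same sign.

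ECH1, an enzyme that moves double bonds of dienoyl-CoA, was the most stable of these calls. It read 11.25 and 11.35 in parental and 10.19 and 10.28 in resistant siC cells, and 11.38 and 11.06 against 10.08 and 10.23 in siERRα cells. All 4 resistant arrays lay below all parental arrays, and below all 12 arrays of the growth factor experiment. ECH1 fell 2.09-fold in siC (-1.07, SE 0.17, adjusted p 0.00336) and 2.09-fold in siERRα (-1.06, SE 0.17, adjusted p 0.00288), and remained called whichever of the arrays was left out. The methods' t-test, run on these arrays alone, did not call it after adjustment (adjusted p 0.197 in siC and 0.282 in siERRα). Its promoter was not in the table used here.

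ACSL5, an acyl-CoA synthetase of mitochondria and endoplasmic reticulum, rose. It read 6.85 and 6.88 in parental and 8.01 and 8.21 in resistant siC cells, and 6.74 and 7 against 8.06 and 8.24 in siERRα cells. The groups did not overlap. The increase was 2.37-fold in siC (1.25, SE 0.30, adjusted p 0.0326) and 2.43-fold in siERRα (1.28, SE 0.30, adjusted p 0.0258), and each call was lost when any one of the 4 arrays compared was left out. Another probe gave 0.41 in siC and 1.03 in siERRα. Without background correction the changes were 0.78 and 0.81, and in the authors' normalized values 0.56 and 0.57, still called. Its parental level was itself low: starved siC arrays read 7.88 and 7.58, and parental over starved was -0.87 (adjusted p 0.324, and 0.00913 with 19 arrays). Those groups come from separate experiments, so serum and experiment cannot be told apart. The window before the upstream of the ACSL5 starts in the table (plus strand, chr10:112375018-112375267) is shown because it held no GC box, unlike those of most members.
ACSL5: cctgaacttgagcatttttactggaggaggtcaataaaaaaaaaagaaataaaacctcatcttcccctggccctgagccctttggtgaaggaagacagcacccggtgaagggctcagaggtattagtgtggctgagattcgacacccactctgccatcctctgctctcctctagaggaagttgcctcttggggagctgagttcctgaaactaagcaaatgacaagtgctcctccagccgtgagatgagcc

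ACSL1 was also higher, at 9.15 and 9.15 in resistant against 8.55 and 8.51 in parental siC cells (0.62, adjusted p 0.0791, and 0.0146 with 19 arrays). In siERRα it was 0.58 (adjusted p 0.0986, and 0.0194 with 19 arrays). Both carnitine acyltransferases were positive, CPT2 at 0.53 and CPT1A at 0.33 in siC, with resistant arrays above parental arrays, and neither was called. Another probe of CPT1A gave -0.61, so its direction is not settled. ACADM was at 0.36 in siC and 0.42 in siERRα, and ACADVL, HADHA and ETFDH were between -0.11 and 0.08 in siC. ETFB, a subunit of the electron transfer flavoprotein, read 9.7 and 9.97 in parental and 9.26 and 9.12 in resistant siC cells, lower without overlap (-0.65, adjusted p 0.285).

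Of the acyl-CoA thiolases, mitochondrial ACAA2 was at 9.22 and 9.17 in parental and at 8.55 and 8.54 in resistant siC cells (-0.65, adjusted p 0.0802, and 0.0193 with 19 arrays), and in siERRα it was -0.27 and not called. ACAA1, which is peroxisomal, was at 12.25 and 12.6 in parental and 11.87 and 11.79 in resistant siERRα cells (-0.60, adjusted p 0.17, and 0.0301 with 19 arrays), and in siC it was -0.53. HADHB was at 0.17 in siC and 0.12 in siERRα, and the acetoacetyl-CoA thiolases ACAT1 and ACAT2 were between -0.05 and 0.08. Of the 10 members grouped after the first dehydrogenation 8 were negative in siC, at a median of -0.17, and 7 in siERRα, at a median of -0.04.

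In the propionyl-CoA branch PCCA and MCEE differed in opposite directions. PCCA read 9.47 and 9.49 in parental and 8.77 and 8.62 in resistant siC cells, and 9.57 and 9.22 against 8.75 and 8.63 in siERRα cells. It was lower in both without overlap (-0.78 and -0.70, adjusted p 0.0846 and 0.123, and 0.00706 and 0.0117 with 19 arrays). MCEE read 10.01 and 10.16 in parental and 10.9 and 10.61 in resistant siC cells (0.67, adjusted p 0.303, and 0.1 with 19 arrays), and 9.87 and 10 against 10.93 and 10.84 in siERRα cells (0.95, adjusted p 0.11, and 0.0244 with 19 arrays). Every resistant array of MCEE was above every other array in the set. HIBADH, a dehydrogenase of valine breakdown, was at 10.97 and 11.05 in parental and 11.52 and 11.68 in resistant siERRα cells (0.58, adjusted p 0.051, and 0.00603 with 19 arrays), and at 0.39 in siC. BCAT2, BCKDHA and DBT were between -0.36 and 0.16 in siC and not called. The 4 members of the leucine branch were each lower on both resistant arrays in siERRα (median -0.34), where 27.7% of all genes were, and in siC 1 of the 4 was, where 27.9% of all genes were. None was called.

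**Figure D3:**
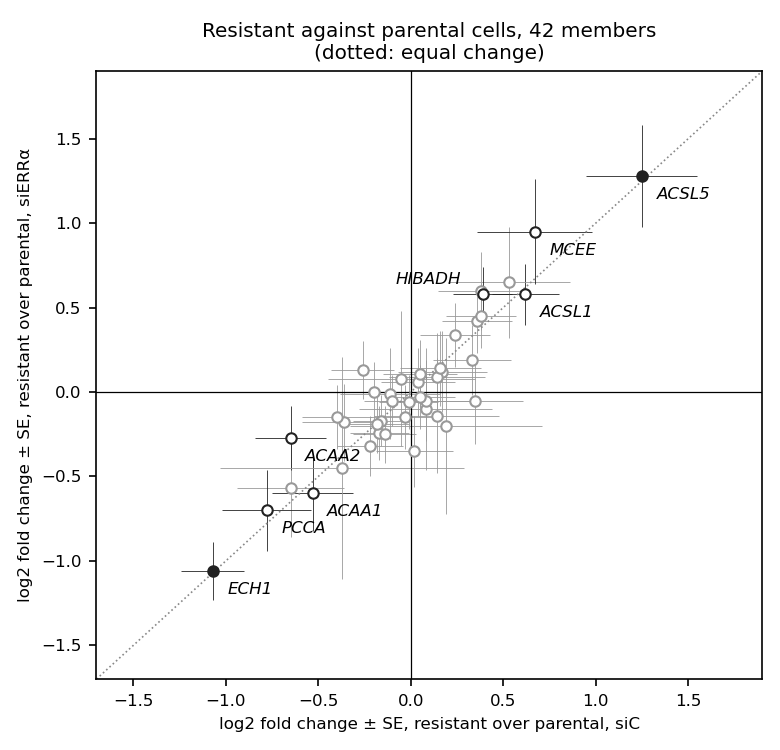
Log2 fold change of resistant over parental cells in siC (horizontal axis) and siERRα (vertical axis) with SE bars, fit of 20 arrays, for the 42 measured members. Filled symbols passed the test with 20 arrays (ECH1 and ACSL5 in both) and named open symbols with 19 arrays in at least 1 comparison, and the points lie along the dotted line of equal change.

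siERRα changed no member detectably in any setting. In starved cells 0 of 42 were called (0.0104% of all genes with 20 arrays and 0.0104% with 19), with EGF 0 (0.073% and 0%), with HRG 0 (0% and 0.0104%), in parental cells 0 (0% and 0%) and in resistant cells 0 (0.0104% and 0.0521%). Averaged over the 5 settings 0 members were called, against 0.0104% of all genes with 20 arrays and 0.0209% with 19. At an unadjusted p under 0.05 the average had 8 members (19%, against 8.63% of all genes), and with 19 arrays 8 (19%, against 11.1%). Since nearly no gene of the array was called, these zeros say little about the members. Over the average the members ran from -0.28 to 0.20, with a median of -0.06 against 0.01 over all genes, and 28 of 42 were negative. With 19 arrays the median was -0.01 and 21 were negative, so that the shift of the median rested on the array that stood apart. The 8 members picked by unadjusted p with 20 arrays were all negative, between -0.27 and -0.20. These 8 stayed negative with 19 arrays, between -0.23 and -0.14, so their direction did not rest on that array alone.

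MCCC1 had the smallest p of the average, at -0.27 (SE 0.08, adjusted p 0.426, and 0.238 with 19 arrays). It was negative in each of the 5 settings, between -0.34 in resistant cells and -0.14 with EGF in the fit of 19 arrays. AUH was at -0.28 and ACAT2, the cytosolic acetoacetyl-CoA thiolase, at -0.25 with 20 arrays, and at 0.05 and -0.11 with 19. ACADM, long known as a target of ERRα, was at -0.21 (SE 0.08, adjusted p 0.527) and at -0.20 with 19 arrays. Its changes in the single settings ran from 0.18 in starved cells to -0.41 with EGF. In resistant cells, where ESRRA was lower by 2.61, the lowest members were ACAA1, MCCC1 and MCCC2, each at -0.34, with siERRα arrays of MCCC1 at 10.34 and 10.33 against 10.84 and 10.51 in siC. ACADM was at -0.29 there. BCAT2, BCKDHA, BCKDHB and DBT were positive on average by the probes used, from 0.10 to 0.20, and not called. The other probes of BCKDHB gave -0.04 and -0.09, so its sign is not settled.

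CPT1A, CPT2, ACADVL, HADHA, ETFDH and MCEE were between -0.22 and 0.11 on average, and between -0.06 and 0.06 with 19 arrays. With HRG, ALDH1B1 was at -0.74 (6.9 and 6.88 in siERRα against 7.77 and 7.48 in siC) and BCKDHB at 0.86, with adjusted p of 1 for each. None of the differences of the siERRα response was called for a member, for EGF minus starved (0% of all genes, and 0% with 19 arrays), for HRG minus starved (0% and 0%) or for resistant minus parental (0% and 0%). Parental over starved cells had 0 members called (0.73% of all genes), and with 19 arrays 1, ACSL5 (2.38%, against 2.16%).

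**Figure D4:**
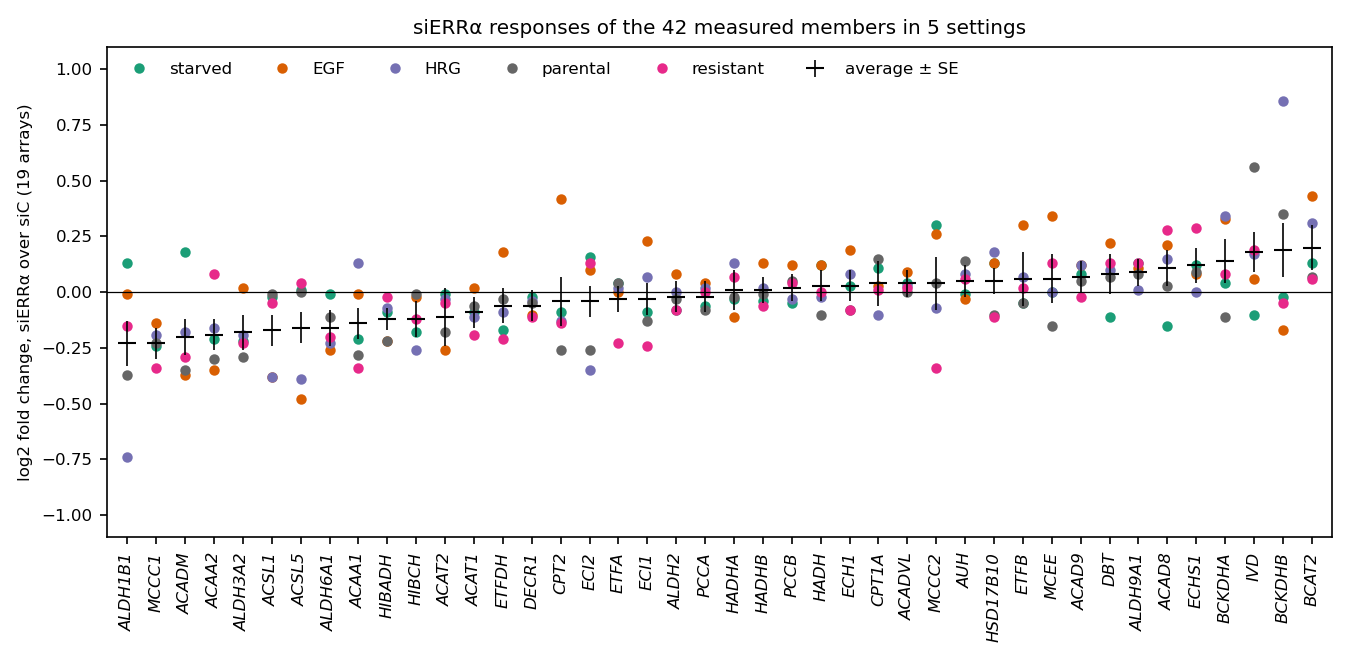
Log2 fold change of siERRα over siC (vertical axis, fit of 19 arrays) for each of the 42 measured members, ordered by the average over the 5 settings (bars with SE), with 1 point for each setting. The averages lie between -0.23 for ALDH1B1 and 0.20 for BCAT2, and none passed the test.

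Other genes of these pathways, from lists drawn by role, were also measured. Of these 33, RXRA, the partner of the PPAR receptors, was the 1 called with EGF, where 5.25% of all genes were called. It read 8.49 and 9.13 against 9.98 and 10.01 in starved siC cells (-1.18, adjusted p 0.0326). With 19 arrays MMAB (detected on 1 of 2 EGF arrays) and MMACHC, which handle cobalamin for the step after MCEE, were lower with EGF as well (-1.07 and -0.97, adjusted p 0.0146 and 0.00437), and FABP5, ACOT9 and PPRC1 were higher (0.97, 0.60 and 0.64). MMACHC was lower with HRG in siC and in siERRα with 19 arrays (-0.81 and -0.95). In resistant siC cells 2 of 33 were called, both lower, where 4.5% of all genes were called. Counts this small are not a result about these lists. ACOX2, a peroxisomal oxidase of branched acyl chains, read 6.86 and 7.36 in parental and 5.01 and 4.74 in resistant cells (adjusted p 0.00335). It was not well above background on either resistant array, so its level in parental cells was at least 2.8-fold higher, a bound set against the lowest signal among detected probes. FABP5, a fatty acid-binding protein, read 8.18 and 8.28 against 5.56 and 5.98 (-2.46, adjusted p 0.00431). In siERRα cells neither was well above background on the resistant arrays, both were called, and the parental level was at least 4.27-fold higher for ACOX2 and at least 5.58-fold higher for FABP5. ACAD11, an acyl-CoA dehydrogenase, was higher with 19 arrays in siC and siERRα (0.58 and 0.78).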

How the data were processed

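RNA from 20 SKBr3 samples was hybridized to Illumina HumanHT-12 v4 arrays. The authors deposited bead-summarized intensity on a linear scale for 47323 probes, without background subtraction or scaling, with a detection p-value for each probe and array. A second table deposited by the authors holds log2 values that lumi had normalized within FlexArray, and it was used only as an alternative. For their own tests they ran SAM and Student's t-test.

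Intensities were background-corrected with normexp on the detection p-values (offset 16), normalized by quantiles and taken to log2 (limma 3.58.1, R 4.3.3). Probes with a detection p under 0.01 on both arrays of at least 1 group were kept (15444), of which 12414 had 1 gene symbol in the platform annotation (of all probes, 30113 had 1, 8 several and 17202 none). Each gene took its probe with the highest mean, which gave 9592 genes. Levels of different probes were not compared. One fit of 10 group means (10 residual degrees of freedom, 9 with 19 arrays) gave 16 comparisons, two-sided, with Benjamini-Hochberg adjustment over all genes. With 2 arrays a group, precision is limited by their number. On simulated data for EGF over starved in siC (9592 genes), 65% of genes changed by 1 on the log2 scale were recovered. Of those changed by 2, 97% were recovered, and there were 12 false calls. The simulated noise was independent between arrays and followed the residual SDs of the fit with 19 arrays. Recovery with the noise of the array that stood apart, or with an effect shared by replicates, was not tested, so these shares may be too high for the main fit.

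Arrays of every member called in any comparison with 20 or 19 arrays were given, with the 3 largest changes of the main comparisons and 10 fixed pathway genes, and the rest as ranges. The members, lists and tests were chosen with earlier results of these data known. Alternatives were each array left out, a replicate block, the authors' normalized values, no background correction, an offset of 50, scaling on the 75th percentile, no detection filter, detection on all 20 arrays, the mean of detected probes, array weights, each experiment alone and the methods' t-test. A replicate block with 19 arrays was added after seeing the data. Promoters came from RefSeq (GRCh38.p14, 250 bases before a start), where 38 of 46 members matched by symbol, with 52 windows.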

Additional observations from a re-analysis of the deposited data

How the results depend on the processing

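The count of called members varied with the processing. With EGF in siC (3 called) it was 1 with scaling on the 75th percentile, 0 without the detection filter, 0 by the methods' t-test, 0 in the growth factor experiment alone and 0 to 5 with single arrays left out. With HRG in siC (1 called) it was 3 with the authors' normalized values, without background correction, with detection on all 20 arrays and with array weights, 2 with an offset of 50, 0 by the methods' t-test and 0 to 4 with single arrays left out. With HRG in siERRα (1 called) it was 3 with the authors' values and with array weights, 2 without background correction and with detection on all 20 arrays, 0 by the methods' t-test and in its own experiment, and 0 to 4 with single arrays left out. Resistant over parental in siC (2 called) gave 4 with the authors' values, 1 without the detection filter, 8 with array weights, 0 by the methods' t-test, 7 in its own experiment and 1 to 5 with single arrays left out. In siERRα (2 called) the counts were 5, 4 without background correction, 7 with array weights, 0, 6 and 1 to 7. Parental over starved (0 called) gave 2 with array weights and 0 to 1 with single arrays left out. For siERRα the counts of 0 became 20 with EGF, 11 over the average and 13 for EGF minus starved when EGF siERRα replicate 2 was left out, which leaves only the array that stood apart, and they were 0 with any other array left out.

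With a replicate block the members called numbered 3 with EGF, 2 with HRG in siC, 2 with HRG in siERRα, 2 in each resistance comparison and 0 elsewhere. The replicate block with 19 arrays, chosen after seeing the data, gave 5, 4, 4, 7 and 7, and 1 for parental over starved. The replicate numbers were not taken as pairing the samples in the main fit, since the labels do not say what they mark. Of 45 pairs of groups, 21 had correlated deviations over 0.1 (median 0.0948). Each of the 20 arrays deviated most like one of its own number. The 2 arrays of a group deviate as mirror images, so these are not 20 separate outcomes. Array names also differ, ending in digits for replicate 1 and in letters for replicate 2. Whether replicates share an effect was not tested, and the main p-values do not allow for one. With EGF in siC the block called 591 of all genes, against 504 without it.

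Of 579 alternatives for named genes 577 kept the direction of the main value, the exceptions being AUH over the siERRα average with 19 arrays (0.05) and with the replicate block as well (0.04), and 0 of the 32 pairs of gene and comparison passed in every alternative. The members' median with EGF and HRG stayed negative in 48 of 48. The precision is limited by 2 arrays a group.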
